A study of Mus musculus with 15 samples.

Results

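The 8 transcription factors of the lung epithelium followed here were Nkx2-1, Foxa1, Foxa2, Elf3, Ehf, Grhl2, Sox2 and Gata6. They were taken as a list of names, drawn up with earlier results of these data known, and each symbol was looked up in the deposited expression list. All 8 were present, each through 1 listed transcript, among 10222 gene symbols. Sox2 and Gata6 are also known for roles outside epithelium.

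RNA was sequenced from flow-sorted mouse cells of the C57BL/6 IL33-citrine reporter strain, in which a fluorescent protein reports the Il33 gene. The 5 populations, with 3 libraries each and 15 in all, were lung Epcam+ epithelial cells, lung Il33+ stromal cells (lung Il33+ MSC), CD31+ endothelial cells of white adipose tissue (WAT endothelial cells), and citrine-positive and citrine-negative stromal cells of mesenteric WAT (Il33+ WAT-MSC and Il33- WAT-MSC). The study set its Il33+ adipose stroma beside these other cells, and the lung epithelium is the population in which the factors below are known to act. All cells were taken directly after sorting, with no treatment, and all carried the reporter. The labels do not say how many mice gave each library or whether replicates are separate animals, so p-values measure the spread between these libraries, which may be partly technical. The WAT-MSC gate of the study's methods asks for PDGFRα and against EpCAM, CD31 and CD45. The epithelial and endothelial labels name 1 surface marker each, and the gating scheme in the study's first figure takes both as CD45-negative as well.

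Levels are in RPKM, the reads of a transcript divided by its length and by the depth of the library, which allows genes of different length to be set side by side within a library. Libraries held 42711843 to 60773158 alignments. Scgb1a1, the club cell secretory protein, took 57.7% to 62.9% of the summed RPKM of the epithelial libraries and at most 0.248% elsewhere. Across genes, libraries of a population correlated at 0.773 to 0.962, lowest for replicate 1 of the WAT endothelial cells and next for replicate 1 of the lung epithelial cells. That epithelial library was also the shallowest of all, and its sequencing lane was lane 1, whereas the other epithelial libraries came from lane 2.

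The epithelial label was checked against its markers. Epcam, the adhesion molecule used for the sort, was at 31.4 ± 7.38 RPKM (SD, n = 3) in the lung epithelial cells and at no more than 0.28 RPKM in any other library. Cdh1, the epithelial cadherin, was at 102 ± 14.6 RPKM there. Of the markers listed for this check, all 4 of club cells, all 7 of alveolar type 2 cells and all 7 of ciliated cells were at 1 RPKM or more in each epithelial library, so genes of airway and of alveolar cells were measured together. The basal cell markers Krt5, Krt14, Krt15 and Trp63 and the leukocyte marker Ptprc were looked up but had no entry in the expression list, so their levels are unknown. Epithelial libraries also held RNA of genes that mark other cells: Pecam1 of endothelium was at 12.4 to 19.1 RPKM and Pdgfra of stroma at 3.00 to 8.42 RPKM. The 7 alveolar macrophage markers summed to 723 to 1395 RPKM in the epithelial libraries, with 6 of them at 1 RPKM or more in each, and to 195 to 244 RPKM in lung Il33+ MSC, 10.7 to 134.5 RPKM in WAT endothelial cells and 5.80 to 37.5 RPKM in the WAT-MSC populations. The larger epithelial sum did not hold across the list. In the limma fit against lung Il33+ MSC described below, 1 of the 7 was called higher, beside 18.5% of all genes, and 6 were not called. Their median log2 difference was -0.084. The 4 leukocyte markers in the list summed to 35.5 to 47.6 RPKM in the epithelium, 16.5 to 30.7 RPKM in lung Il33+ MSC, 3.58 to 47.7 RPKM in WAT endothelial cells and 1.11 to 11.2 RPKM in the WAT-MSC populations. Their part in the values below was not tested.

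In the lung, NKX2-1 is the homeodomain factor that marks the respiratory lineage and acts with the forkhead factors FOXA1 and FOXA2 on surfactant and secretoglobin genes. GRHL2, of the grainyhead family, and the ETS factors ELF3 and EHF are general regulators of epithelial junctions and of barrier genes. SOX2 marks the proximal airway, whereas GATA6, a zinc-finger factor, works in distal lung epithelium and also in the mesenchyme, heart and vessels.

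In the mouse build mm10, which is the build of the submitters' processing notes and of the GENCODE M21 annotation, the listed Nkx2-1 transcript has 2 exons and spans chr12:56531958-56535106 on the minus strand. The Foxa1 transcript, also of 2 exons and on the minus strand, spans chr12:57540628-57546121. Foxa2 spans chr2:148042877-148045948 and Ehf chr2:103263433-103303278, both on the minus strand. Elf3 spans chr1:135253579-135258438 on the minus strand, Grhl2 chr15:37233036-37363569 with 16 exons on the plus strand, and Sox2, a gene of 1 exon, chr3:34650405-34652461 on the plus strand. RefSeq holds 3 curated Foxa2 and 2 curated Elf3 transcripts, of which 1 each was listed, and the listed Nkx2-1 transcript is not the one that RefSeq now gives, so reads assigned to other isoforms could be missing from these values.

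Promoter windows from RefSeq (GRCm38.p6) matched 5 of the 8 genes, namely Nkx2-1, Foxa1, Foxa2, Elf3 and Sox2. Foxa2 had 3 windows, of which only the one nearest the start of its listed transcript was used. The stretches of the homeodomain and forkhead genes are shown because these 3 genes were epithelial together in the data below, and textbook accounts have the factors act jointly. Each runs 5′ to 3′ on the gene strand towards the transcription start, with annotated exon bases removed, and capitals mark matches to any of the motifs searched.
Nkx2-1: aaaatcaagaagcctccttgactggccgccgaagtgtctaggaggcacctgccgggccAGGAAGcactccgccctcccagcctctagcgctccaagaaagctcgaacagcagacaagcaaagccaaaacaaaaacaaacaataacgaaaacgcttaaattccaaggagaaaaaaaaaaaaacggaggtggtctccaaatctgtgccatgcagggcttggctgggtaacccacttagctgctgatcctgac
Foxa1: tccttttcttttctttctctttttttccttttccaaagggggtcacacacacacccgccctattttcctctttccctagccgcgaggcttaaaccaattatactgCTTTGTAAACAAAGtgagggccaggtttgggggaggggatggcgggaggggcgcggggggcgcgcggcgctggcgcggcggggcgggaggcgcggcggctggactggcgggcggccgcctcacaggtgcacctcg
Foxa2: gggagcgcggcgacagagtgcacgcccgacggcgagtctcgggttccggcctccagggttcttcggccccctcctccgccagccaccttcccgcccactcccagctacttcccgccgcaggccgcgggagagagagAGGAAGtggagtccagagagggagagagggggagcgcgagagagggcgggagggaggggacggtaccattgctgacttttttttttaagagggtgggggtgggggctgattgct
The first is chr12:56536909-56537158, which lies 1802 bases from the start of the listed transcript, the second chr12:57546122-57546361 and the third chr2:148045949-148046198, all on the minus strand. The motifs, searched on both strands, were TGTTTAC for forkhead factors, AACCNGTT for grainyhead, CTCAAG for NKX2-1, AGGAAG for ETS, ACAANG for SOX and AGATAA for GATA factors. Foxa1 held the forkhead letters on the other strand, flanked by and overlapping a SOX match on each strand. Those forkhead letters were in 3.06% of 32851 windows cut to the same 240 bases, and the SOX letters in 35.4%. Nkx2-1 and Foxa2 each held 1 ETS match, as did 29.5% of all windows of 250 bases. Sox2 held 1 SOX match, found in 36.3% of such windows, and the 154 non-exonic bases of Elf3 held none of the 6 motifs. A match is only a run of letters and says nothing about binding.

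Nkx2-1 was the highest of the factors in the epithelium. Its level in the lung epithelial cells was 36.9, 45.5 and 64.6 RPKM in replicates 1, 2 and 3, a mean of 49.0 ± 14.2 RPKM (SD, n = 3). Lung Il33+ MSC held 0.26, 0.15 and 0.73 RPKM. WAT endothelial cells held 0.03 to 0.05 RPKM, Il33+ WAT-MSC 0.03 to 0.07 RPKM and Il33- WAT-MSC 0.01 to 0.11 RPKM. Every epithelial library therefore lay far above every other library, and by epithelial mean the gene ranked 332 of 10222 symbols. The ratio of mean levels was 129 against lung Il33+ MSC.

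Foxa1 followed it closely. The epithelial libraries held 32.8, 28.9 and 40.4 RPKM of Foxa1 (34.0 ± 5.84 RPKM, SD, n = 3) and lung Il33+ MSC 0.07, 0.02 and 0.25 RPKM. No adipose library exceeded 0.03 RPKM. Among the 15 forkhead genes in the list it was second in the epithelium, after Foxj1, the ciliated cell factor, at 49.9 RPKM. The Nkx2-1 to Foxa1 ratio varied little, at 1.12, 1.57 and 1.6 in the epithelial libraries.

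Foxa2 was far lower than its paralog. It was at 2.99, 3.90 and 1.37 RPKM in the epithelial libraries (2.75 ± 1.28 RPKM, SD, n = 3), and 60.6% of symbols had a higher epithelial mean. Lung Il33+ MSC listed it at 0, 0 and 0.03 RPKM, WAT endothelial cells at 0, 0.04 and 0, Il33+ WAT-MSC at 0, 0.01 and 0.01, and Il33- WAT-MSC at 0 in all 3 libraries. Foxa1 exceeded Foxa2 by 11, 7.41 and 29.5 times in epithelial replicates 1, 2 and 3, and the widest gap, in replicate 3, came from a low Foxa2 beside the highest Foxa1.

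In RPKM, Ehf and Grhl2 were the steadiest members across the epithelial libraries. Relative to Epcam, Ehf ranged over 1.88-fold and Grhl2 over 1.38-fold, beside 1.14-fold for Nkx2-1. Relative to Cdh1 the ranges were 1.62-fold for Ehf and 1.19-fold for Grhl2, beside 1.35-fold for Nkx2-1. Ehf, an ETS factor of secretory and barrier epithelia, was at 12.3, 11.6 and 10.1 RPKM in the lung epithelial cells (11.3 ± 1.16 RPKM, SD, n = 3) and at no more than 0.13 RPKM elsewhere, the latter in replicate 3 of lung Il33+ MSC. It ranked 4 of 18 ETS genes in the epithelium. Grhl2 was at 6.11, 6.52 and 6.78 RPKM (6.47 ± 0.338 RPKM, SD, n = 3), the narrowest relative spread of the 8 genes. Its values elsewhere were uneven: lung Il33+ MSC held 0, 0.36 and 0.01 RPKM, and Il33- WAT-MSC 0.27, 0.09 and 0.07 RPKM against 0.01, 0 and 0.03 RPKM in Il33+ WAT-MSC. The last 2 groups did not overlap, and how many of all genes separate likewise is not given here. Without the filter on low values, limma gave a log2 difference of -0.17 ± 0.085 (SE) between these 2 groups and an adjusted p of 0.554. It called 0.138% of all genes lower in Il33+ WAT-MSC.

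Elf3, the other ETS member, was the most variable. Epithelial replicates 1, 2 and 3 held 0.71, 3.07 and 5.69 RPKM (3.16 ± 2.49 RPKM, SD, n = 3), an 8.01-fold range, whereas Ehf in the same libraries differed by 1.23-fold. The Ehf to Elf3 ratio accordingly ran from 17.4 in replicate 1 to 1.77 in replicate 3. Outside the epithelium Elf3 was listed at 0 in 11 of 12 libraries and at 0.02 RPKM in replicate 3 of Il33+ WAT-MSC. Replicate 1 was the lane 1 library, so lane and library cannot be told apart here.

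Sox2, the airway factor, was at 3.25, 4.28 and 3.73 RPKM in the epithelial libraries (3.75 ± 0.515 RPKM, SD, n = 3). It was listed at 0 in every library of lung Il33+ MSC and Il33+ WAT-MSC, and reached at most 0.02 RPKM in the other populations. Sox2 headed the 8 SOX genes of the list in the epithelium, closely followed by Sox7, an endothelial SOX gene, at 3.38 RPKM.

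Gata6 had another distribution. Its level was 1.34, 4.33 and 5.12 RPKM in the lung epithelial cells (3.60 ± 1.99 RPKM, SD, n = 3) and 9.84, 10.2 and 9.48 RPKM in lung Il33+ MSC (9.85 ± 0.380 RPKM). WAT endothelial cells held 4.26, 7.03 and 9.77 RPKM (7.02 ± 2.76 RPKM), Il33+ WAT-MSC 9.42, 6.06 and 9.31 RPKM (8.26 ± 1.91 RPKM) and Il33- WAT-MSC 2.57, 5.98 and 5.59 RPKM (4.71 ± 1.87 RPKM). Thus it was present in all 15 libraries, highest in lung stroma and lowest in the epithelium, and replicate 1 was the lowest library of 3 populations. In bulk RNA, fewer cells with a transcript and less of it per cell cannot be told apart.

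**Figure D1:**
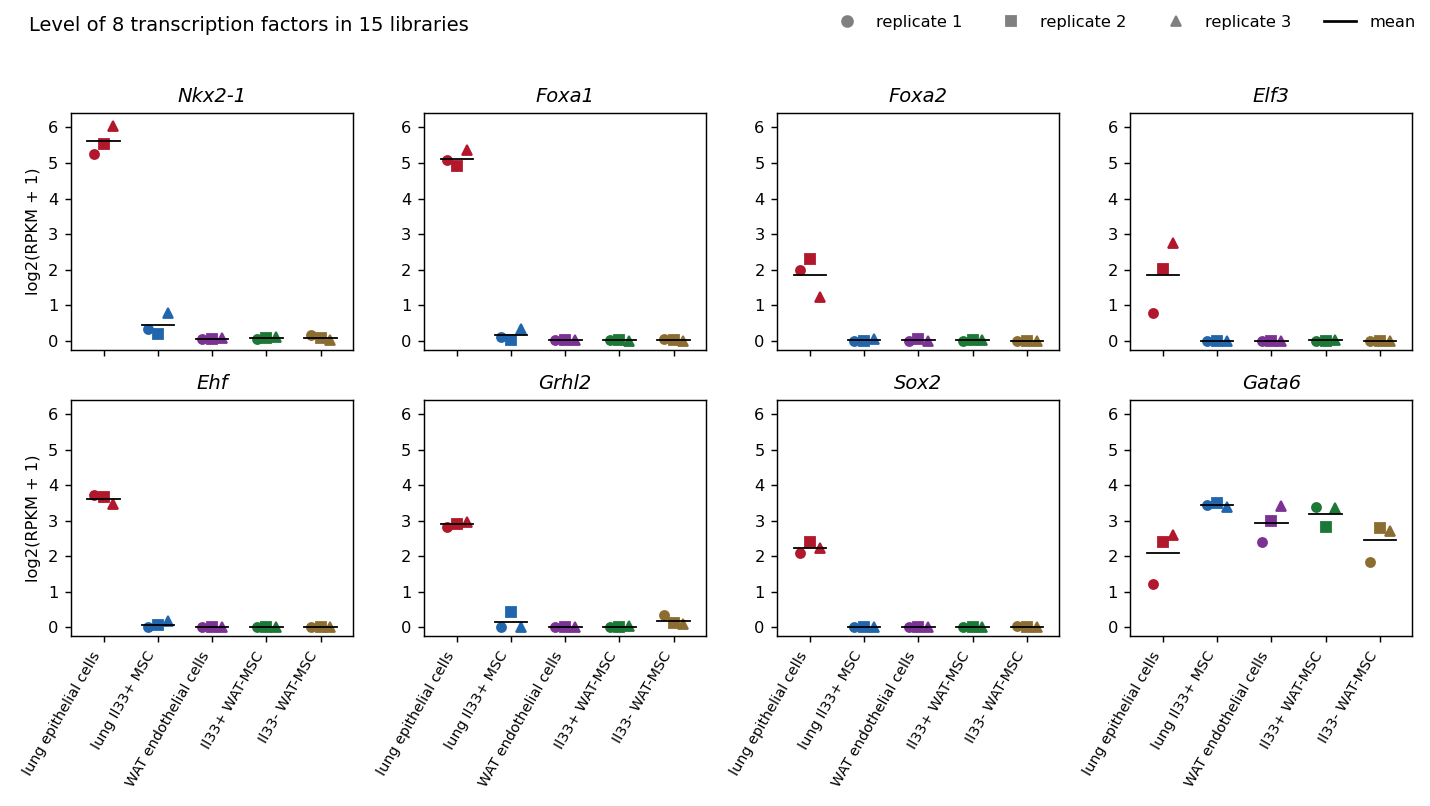
Level of each factor as log2(RPKM + 1) in the 15 libraries, by population; symbols mark replicates and lines the mean of 3. Each of the 7 factors other than Gata6 is higher in every lung epithelial library than in any other library. Their epithelial values run from 0.71 RPKM (Elf3) to 64.6 RPKM (Nkx2-1), and elsewhere none exceeds 0.73 RPKM (Nkx2-1). Gata6 is found throughout.

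The factors were compared between the epithelium and each other population with limma on log2(RPKM + 1), over genes at 1 RPKM or more in at least 3 of the 6 libraries compared. The 4 comparisons share the epithelial libraries and are therefore not independent of each other. Nkx2-1, Foxa1, Foxa2, Ehf, Grhl2 and Sox2 passed that filter only through their epithelial libraries, so that a difference was built into their being tested. Elf3 did not pass, having only 2 libraries at 1 RPKM. On this scale a difference understates the change of genes near 0.

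Against lung Il33+ MSC, 6 of the 7 factors tested were higher in the epithelium and Gata6 was lower, where 18.5% of all 9352 genes tested were higher and 24.4% lower (43% in all). The log2 difference was 5.16 ± 0.29 (SE) for Nkx2-1, 4.97 ± 0.25 for Foxa1, 3.54 ± 0.25 for Ehf, 2.75 ± 0.26 for Grhl2, 2.24 ± 0.24 for Sox2 and 1.83 ± 0.31 for Foxa2. Adjusted p (limma, Benjamini-Hochberg over all genes tested) ran from 9.82e-07 for Foxa1 to 0.00109 for Foxa2. For Nkx2-1 the 95% interval was 4.51 to 5.82 against lung Il33+ MSC and 4.77 to 6.33 against WAT endothelial cells.

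The adipose comparisons gave the same 6 factors as higher. The share of all genes called higher was 12.8% against WAT endothelial cells (27.6% called in all), 18% against Il33+ WAT-MSC (41% in all) and 18.6% against Il33- WAT-MSC (42.1% in all). The largest adjusted p of the 6 factors was that of Foxa2 against WAT endothelial cells, at 0.00682 by limma. Without a filter, 8 of 8 factors could be tested, and Elf3 was higher in the epithelium by 1.85 on the log2 scale against lung Il33+ MSC (adjusted p = 0.0106 by limma). Then 17.3% of 10201 genes were called higher. Its adjusted p was 0.0305 against WAT endothelial cells, 0.0120 against Il33+ WAT-MSC and 0.0124 against Il33- WAT-MSC, again by limma without a filter, where 11.4%, 17% and 17.5% of genes were called higher.

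**Figure D2:**
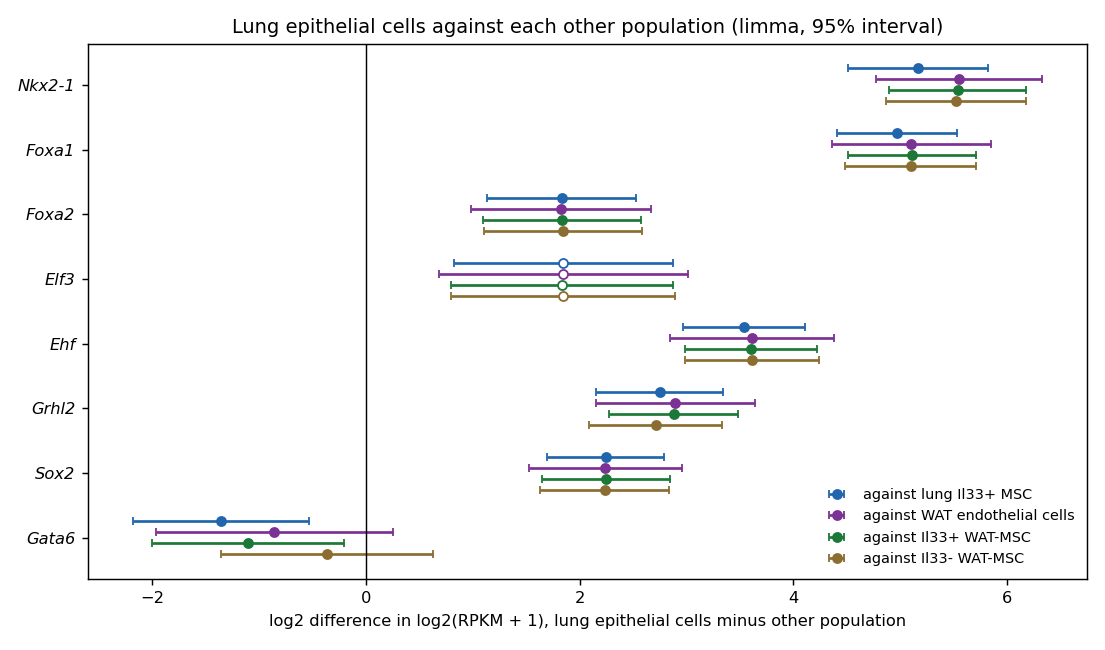
Log2 difference of each factor between lung epithelial cells and each other population, with the 95% interval from limma; open symbols mark Elf3, which was fitted without the filter. Values for Nkx2-1 lie between 5.16 and 5.55, those of Gata6 between -1.35 and -0.37, left of the 0 line.

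The scaling of the libraries moved these values. Under median-ratio scaling, the median shift of the log2 difference over genes was 0.192 against lung Il33+ MSC, 0.218 against WAT endothelial cells, 0.247 against Il33+ WAT-MSC and 0.251 against Il33- WAT-MSC. It moved the share of calls that were higher in the epithelium from 43.1% to 51.4% against lung Il33+ MSC, where 1734 higher and 2285 lower genes became 2096 and 1980. In the 3 adipose comparisons that share moved from 46.2% to 56.8%, from 44% to 55.3% and from 44.2% to 55.5%. Relative to the median gene, Nkx2-1 was at 5.26 and Gata6 at -1.22 against lung Il33+ MSC under that scaling, and no factor changed its direction under it in the 4 comparisons.

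Gata6 was the exception among the 8, and it was lower in the epithelium than in lung stroma. The log2 difference from lung Il33+ MSC was -1.35 ± 0.36 (SE), with an adjusted p of 0.0138 by limma. The libraries of the groups did not overlap, and how many of all genes separate likewise is not given here. This call was lost without replicate 2 of lung Il33+ MSC, at an adjusted p of 0.0519 by limma. Within lane 1 the only epithelial library held 1.34 RPKM beside 9.84 RPKM, and within lane 2 the epithelial libraries held 4.33 and 5.12 RPKM beside 10.2 and 9.48 RPKM. Over 15 alternatives the adjusted p ranged from 0.00573 to 0.0519.

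Gata6 did not pass the threshold in any other comparison. The share of all genes called lower in the epithelium was 14.9% against WAT endothelial cells, 23% against Il33+ WAT-MSC and 23.5% against Il33- WAT-MSC. Against Il33+ WAT-MSC the epithelial libraries were all lower, by -1.10 ± 0.40 (SE) on the log2 scale, at an adjusted p of 0.0514 by limma, and 5 of 15 alternatives took it below 0.05. One of these was the fit with the sequencing lane as a covariate, with a log2 difference of -1.36 and an adjusted p of 0.0116 by limma. Against WAT endothelial cells the log2 difference was -0.86 with a 95% interval from -1.97 to 0.25, and against Il33- WAT-MSC it was -0.37, with an interval from -1.36 to 0.62. Between the non-epithelial populations, 1 factor of 8, Gata6, passed the filter. Lung Il33+ MSC and Il33+ WAT-MSC differed by 0.25 (95% interval -0.28 to 0.78), where 6% of all genes were called. WAT endothelial cells and Il33+ WAT-MSC differed by -0.25 (-1.12 to 0.63), where 3.9% were called, and the 2 WAT-MSC populations by 0.74 (-0.02 to 1.49), where 1.57% were called. The order of means ran from lung Il33+ MSC through Il33+ WAT-MSC, WAT endothelial cells and Il33- WAT-MSC to the lung epithelial cells. No tested neighbours in it passed the threshold, which does not show that their levels were equal. The libraries of lung Il33+ MSC, 9.48 RPKM or more, and of Il33+ WAT-MSC, 9.42 RPKM or less, did not overlap. Limma did not call this difference (adjusted p = 0.67), and how many of all genes separate in this way is not given here. The endothelial cells and Il33- WAT-MSC were not tested against each other, and their ranges overlap.

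**Figure D3:**
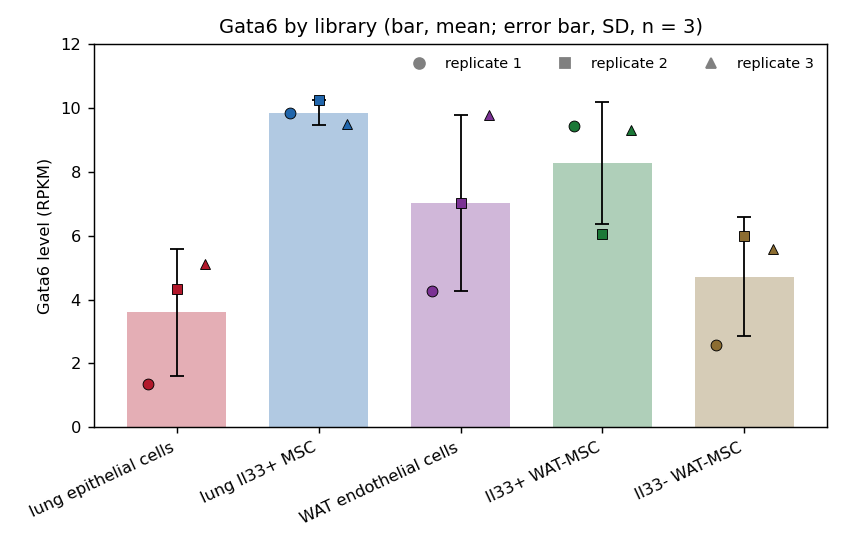
Gata6 in RPKM by population: bars, means; error bars, SD of 3 libraries; symbols, replicates. All 3 libraries of lung Il33+ MSC lie between 9.48 and 10.2 RPKM, above the epithelial libraries at 1.34 to 5.12 RPKM.

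Markers of other cells were present beside the epithelial Gata6 values. All 7 endothelial markers were above 0 in each epithelial library and summed to 47.8, 65.3 and 39.3 RPKM, against 456 to 510 RPKM in the WAT endothelial cells. All 7 stromal markers were likewise above 0, with sums of 133, 92.0 and 178 RPKM, against 6772 to 8962 RPKM in lung Il33+ MSC. Gata6 stood at 1.34, 4.33 and 5.12 RPKM in the same libraries, and 3 libraries cannot show whether it follows either sum. The part of such RNA in the epithelial Gata6 level was not tested.

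Traces of the epithelial factors in lung Il33+ MSC were uneven. As a percentage of the epithelial mean, Nkx2-1 stood at 0.531, 0.306 and 1.49, Foxa1 at 0.206, 0.0587 and 0.734, and Ehf at 0.0882, 0.353 and 1.15 in replicates 1, 2 and 3. Replicate 3 was thus the highest for all 3 genes, and it was also the highest in Scgb1a1, with 493 RPKM against 72.9 and 200.3 RPKM. Grhl2 went another way, with 5.56% in replicate 2 and 0.155% or less in the others. The alveolar marker Sftpc, surfactant protein C, was highest in replicate 1, at 7.48%, and stood at 2.24% and 3.21% in the others, well over Cdh1 at 0.411% to 1.08%.

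Over whole marker lists, the 6 epithelial markers summed to 12.1, 16.3 and 20.4 RPKM in lung Il33+ MSC, against 950 to 1289 RPKM in the epithelium, with Epcam and Cldn7 at 0 in some libraries. The 7 alveolar type 2 markers, none of which was at 0, summed to 145, 42.3 and 65.0 RPKM, against 1649 to 3403 RPKM. In the WAT libraries Nkx2-1 did not exceed 0.225% of its epithelial mean, and Sftpc did not exceed 0.113%. Grhl2 in Il33- WAT-MSC, at 4.17%, 1.39% and 1.08%, stood apart from Cdh1, at 0.0685% or less in the same libraries. The part of carried-over epithelial RNA in these traces was not tested.

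**Figure D4:**
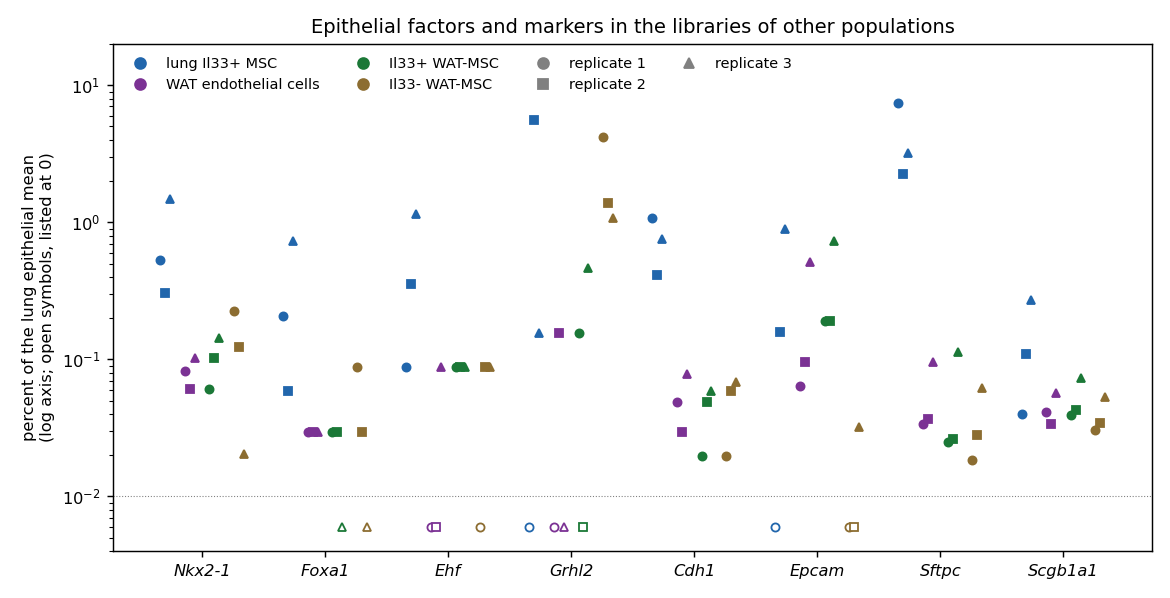
Level of 4 factors and 4 epithelial markers in the 12 other libraries, as a percentage of the mean of the lung epithelial cells on a log axis; open symbols at the foot are libraries listed at 0. Sftpc in lung Il33+ MSC (2.24% to 7.48%) and Grhl2 in Il33- WAT-MSC (1.08% to 4.17%) lie above the other genes in those populations, apart from 1 lung Il33+ MSC library at 5.56% for Grhl2.

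Genes known to act downstream were counted next, from lists of textbook targets. Of 19 NKX2-1 and FOXA targets, 18 were in the list, and all 18 were higher in the epithelium than in lung Il33+ MSC, where 18.5% of all genes tested were higher. Of these, 7 would not have passed the filter on the lung Il33+ MSC libraries alone, so their difference was built into their being tested, and many are markers of the sorted cells. Scgb1a1, Scgb3a2 and Scgb3a1, secretoglobins of airway secretory cells, had the largest differences, at 9.87, 8.26 and 7.79. The smallest were 1.30 for Abca3, the surfactant lipid transporter, 2.14 for Lpcat1, an enzyme of surfactant lipid, and 2.64 for Ager, an alveolar type 1 marker. Against WAT endothelial cells 17 of 18 were called higher, beside 12.8% of all genes, without Abca3 (1.82, adjusted p = 0.0672 by limma). Only 4 of these targets passed the filter between WAT endothelial cells and Il33+ WAT-MSC. Most therefore needed their epithelial libraries to be tested against the endothelium.

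Of 29 GRHL2, ELF3 and EHF targets, 21 were in the list, and all 21 were higher than in lung Il33+ MSC, where 18.5% of all genes tested were higher. However, 20 of them would not have passed the filter on the lung Il33+ MSC libraries alone. Krt8 and Krt18, keratins of simple epithelia, and Cdh1 led with 6.03, 5.84 and 5.88. Marveld3 and Cldn7, proteins of tight junctions, were among the smallest with 1.79 and 2.69. Against WAT endothelial cells 19 of 21 were called higher, beside 12.8% of all genes, and Lsr was among those that were not (1.45, adjusted p = 0.238 by limma). Only 6 of these targets passed the filter between WAT endothelial cells and Il33+ WAT-MSC, so most again needed their epithelial libraries. Several of these genes are also markers of the sorted cell type, Epcam among them, so their direction follows from the sort.

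The targets differed between the stromal populations too. Between lung Il33+ MSC and Il33+ WAT-MSC, 11 NKX2-1 and FOXA targets could be tested, and 6 were higher in lung stroma, beside 3.5% of all genes: Sftpc (log2 difference 4.90, adjusted p = 0.000147 by limma), Sftpa1 (2.96), Cyp2f2 (2.72), Slc34a2 (2.43), Sftpb (2.34) and Cldn18 (1.37). In Il33+ WAT-MSC, Sftpc, Sftpa1, Slc34a2, Sftpb and Cldn18 had means of 0.68, 0.36, 0.073, 0.25 and 0.0067 RPKM. They passed the filter only with the help of lung Il33+ MSC libraries, so a difference was partly built into their being tested. Nkx2-1 itself, with 0.15 to 0.73 RPKM in lung Il33+ MSC and 0.03 to 0.07 RPKM in Il33+ WAT-MSC, did not pass the filter, and without it limma gave 0.37 ± 0.16 (SE) and an adjusted p of 0.30, where 2.64% of all genes were called higher. Markers of other cells differed in the same comparison. In lung stroma 6 of 7 alveolar macrophage markers tested and 1 of 3 leukocyte markers were higher, beside 3.5% of all genes. There 6 of 7 mesothelial markers were lower, beside 2.5%. Only 2 macrophage markers reached 1 RPKM in each Il33+ WAT-MSC library, and only 1 mesothelial marker in each lung Il33+ MSC library. For most macrophage and mesothelial markers a difference was thus partly built into their being tested. The RNA source of these targets was not tested.

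A wider list held other transcription factors of lung, among them repressors of epithelial genes and mesenchymal factors. Of 65 listed, 45 were present and 42 could be tested against lung Il33+ MSC: 15 were higher, 18 lower and 9 not called, where 18.5% of all genes were higher and 24.4% lower. Of the 42, 14 would not have passed the filter on the lung Il33+ MSC libraries alone. The lower genes included Zeb1, Zeb2, Snai1 (-2.60), Snai2 (-1.08) and Twist1 (-1.56), known for mesenchymal programmes, and Tbx4 (-1.61) and Tbx5 (-2.65), T-box factors of lung mesenchyme. Foxj1 (4.77), Myb (3.87), a regulator of ciliated cell differentiation, and Irx1 (3.64), an Iroquois homeodomain factor, were highest. Klf4 (-3.66), Zeb2 (-3.37) and Zeb1 (-2.72) were lowest, the last pair being repressors of epithelial genes. Klf4 was at 23.0 RPKM in the epithelium and 297 RPKM in lung Il33+ MSC. Against WAT endothelial cells 14 of 39 tested were higher and 11 lower, beside 12.8% and 14.9% of all genes. Against Il33+ WAT-MSC 15 of 37 were higher and 15 lower, beside 18% and 23%. Against Il33- WAT-MSC 14 of 38 were higher and 13 lower, beside 18.6% and 23.5%. In either comparison between WAT populations 27 of the list passed the filter, so some genes here needed their epithelial libraries to be tested.

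The families of the factors were counted against the same shares of all genes, 18.5% higher and 24.4% lower. On the lung Il33+ MSC libraries alone, 3 forkhead, 2 ETS, 2 grainyhead and 4 SOX genes tested would not have passed the filter. Foxa1, Foxa2, Ehf, Grhl2 and Sox2 are among these, so a difference was built into their being tested. Of 14 forkhead genes tested against lung Il33+ MSC, 3 were higher, namely Foxa1, Foxa2 and Foxj1, and 5 were lower, Foxc1 (-2.43), Foxf1 (-1.87) and Foxn3 (-1.82) the most. Of 16 ETS genes, Ehf, Elf5 (3.13) and Etv5 (2.26) were higher and 6 were lower, with Elf4 (-2.16), Ets2 (-1.38) and Elk1 (-1.38) lowest. Of 3 grainyhead genes, Grhl2 and Tfcp2l1 (2.31) were higher, and Ubp1 was at -0.39 without a call. Of 6 SOX genes, Sox2 was higher, Sox9 lower (-2.58) and the others, led by Sox13 (0.62) and Sox4 (0.60), were not called. Of 3 genes in the GATA group, Gata6 and its cofactor gene Zfpm2 (-3.01) were lower and Trps1 (-0.70) was not called.

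**Figure D5:**
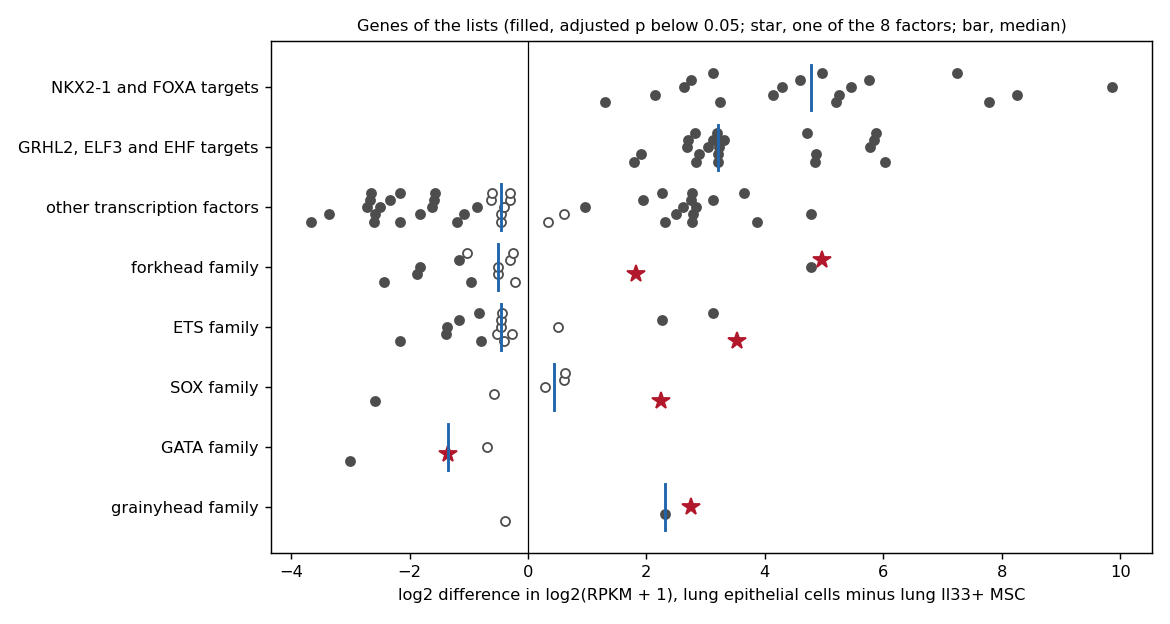
Log2 difference between lung epithelial cells and lung Il33+ MSC for each gene tested in 8 lists; filled symbols passed an adjusted p of 0.05, stars are factors of the 8, and bars are medians. Genes of both target lists, many of them tested through their epithelial level, lie right of 0, while the other factors spread from -3.66 to 4.77.

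Over the 15 libraries the 7 epithelial factors followed one another, and Gata6 did not follow them. Pearson's r on log2(RPKM + 1) between pairs of the 7 was 0.800 (Foxa2 and Elf3) to 0.998 (Nkx2-1 and Foxa1), and between Gata6 and the 7 it was -0.598 to -0.333. These correlations rest on 3 high and 12 low libraries, which share the epithelial depth and composition, and are given as a description. The symbols nearest to each factor were Slc27a2 and Zmynd10 for Nkx2-1 (r = 0.998 each, followed by Foxa1), Slc27a2, 1600029I14Rik and Spef2 for Foxa1, and 2610528J11Rik, Dnah11 and Dnah5 for Ehf, all at 0.999 or more for the last 2 factors. For Grhl2 they were Cfap44, Iqcg and Lypd2 (0.995 to 0.998), and for Sox2 Lrguk, 1700024G13Rik and Lrrc6 (1.000).

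The variable factors had nearest genes of their own. For Foxa2 these were Atp7b, Panct2 and Smim22 (0.997 each), and for Elf3 Bnipl (0.997), Ankrd66 and Rnf186 (0.991 each). For Gata6 they were Mcoln1 (0.943), Mknk2 (0.935) and Tgoln1 (0.911), with epithelial means of 1.39, 4.23 and 28.3 RPKM.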

How the data were processed

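The authors sorted the cells, amplified the RNA (Ovation RNA-seq System V2), sequenced on an Illumina instrument and aligned reads with TopHat2 in Partek Flow to mm10, per the submitters' notes. They deposited RPKM values with 2 decimals for 12698 RefSeq transcripts, of which 41 were below 1 RPKM in every library, so most low transcripts had been left out. RPKM was summed per symbol, which joined several transcripts for 1786 symbols. The values do not give whole reads, so the counts behind them are unknown and no counting interval is given; errors are the SD or SE between libraries.

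The members and all gene lists were chosen with earlier results of these data known. The 7 comparisons were fitted with limma 3.58.1 (R 4.3.3; lmFit, eBayes with trend) on log2(RPKM + 1), each on its 6 libraries, keeping genes that reached 1 RPKM in 3 or more of these, and Benjamini-Hochberg adjustment over all genes tested at a threshold of 0.05. The fit was tested on simulated data with 200 changed genes. Genes named are the 8 factors, the 3 symbols nearest by Pearson's r over 15 libraries, the defining markers, and the 3 highest and 3 lowest of each list against lung Il33+ MSC, with exceptions to a list, apart from 1 gene that is not reported here; family members, targets and other list genes beyond these were named after their values were seen. The lists of markers, targets and families were written from textbook knowledge. Lanes were taken from the library names in the labels. Alternatives were median-ratio scaling or quantile normalization, omitting the filter or raising it to 5 RPKM, a pseudocount of 0.1, a lane covariate, a replicate block, all 15 libraries in 1 fit, the most abundant transcript in place of the sum, the median for levels, and each library left out. Tables and figures used Python 3.11.15, pandas 2.3.3, numpy 2.4.6 and matplotlib 3.10.9.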

Additional observations from a re-analysis of the deposited data

How the results depend on the processing

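The 6 factors other than Gata6 and Elf3 stayed higher in the epithelium, past the threshold, in all 14 or 15 alternatives that could be fitted in each of the 4 epithelial comparisons. The log2 difference of Nkx2-1 from lung Il33+ MSC ran from 4.95 to 6.83, the highest with a pseudocount of 0.1. A stricter filter left 4 of the 6 tested. Elf3 could be fitted in 5 alternatives per comparison and passed in all of them, except without WAT endothelial replicate 2 or 3, at adjusted p of 0.0793 and 0.0661 by limma.

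Gata6 decided the other changes among the factors. The count of factors lower in the epithelium than in lung Il33+ MSC ranged from 0 to 1 with a library left out, and was 0 without lung Il33+ MSC replicate 2. Against Il33+ WAT-MSC it rose from 0 to 1 under quantile normalization, the stricter filter, all libraries in 1 fit and the lane covariate, and ranged from 0 to 1 with a library left out, being 1 without lung epithelial replicate 3. With a library left out, the Gata6 difference from Il33- WAT-MSC ran from -0.68 to 0.061, above 0 without lung epithelial replicate 1, and that of WAT endothelial cells from Il33+ WAT-MSC ran from -0.49 to 0.028, above 0 without WAT endothelial replicate 1. Neither passed the threshold in any alternative. The cause was not tested.

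Counts over all genes in comparisons without epithelium moved more. Between lung Il33+ MSC and Il33+ WAT-MSC, 513 genes became 336 with all libraries in 1 fit and 253 to 495 with a library left out (334 and 253 without lung Il33+ MSC replicates 1 and 2). Between WAT endothelial cells and Il33+ WAT-MSC, 338 became 805 in 1 fit and 131 to 501 with a library left out (150 without WAT endothelial replicate 2, and 131, 159 and 148 without Il33+ WAT-MSC replicates 1, 2 and 3). Between the WAT-MSC populations, 133 became 45 with no filter and 55 to 122 with a library left out (58, 84 and 69 without Il33+ replicates 1, 2 and 3, and 68 and 55 without Il33- replicates 2 and 3).

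A block for the replicate number made the latter count 232 and moved no other count of genes or factors by over 1.5 times. Deviations of same-numbered libraries correlated at -0.09 to 0.15, and in 0 of 7 comparisons was every pair over 0.1, so the numbers were not taken as pairing. Under median-ratio scaling, the epithelial means of Foxa1, Ehf, Grhl2 and Sox2 moved by more than 1 SD, to 41.6, 14.1, 7.90 and 4.54 RPKM. Depth per gene is unknown. A step of 0.01 RPKM would be 0.81 to 3 alignments of a factor if RPKM used the stated alignments, so levels of 0.01 to 0.03 RPKM cannot be ordered.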
